A study of Mus musculus with 24 samples.

Results

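Mouse embryoid bodies (EBs) that had grown with 2 calcineurin inhibitors and were collected on day 6 were set against EBs that grew without the drugs and were collected on day 8, to see which later expression programmes the drug-exposed EBs already held on day 6 and which they did not. The comparison uses 6 of the 24 arrays in the series, chosen by their labels: 3 of FK506/CsA-treated EBs on day 6 and 3 of non-treated EBs on day 8. The treated EBs were differentiated from 46C mouse embryonic stem cells, a line in which a fluorescent reporter was placed at the Sox1 gene, and received FK506 at 100 ng/ml together with cyclosporin A (CsA) at 1 ug/ml from day 3. The untreated day 8 EBs came from the same line in the same culture scheme without the drugs. Non-treated EBs of day 6, also 3 arrays, are given beside them as the starting level of the same day. All groups share the 46C line, and each group holds 3 arrays labelled as biological replicates, from a study that describes 3 independent differentiation experiments without saying which array belongs to which. Total RNA of whole EBs was hybridised to Affymetrix Mouse Gene ST 1.0 arrays, which read log2 intensity over the exons of each gene.

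The 2 groups differ in more than the drugs. EBs were moved to low-attachment dishes on day 3 and plated on an adherent surface on day 7, so that the treated day 6 EBs were still in suspension while the untreated day 8 EBs had been plated. Day, drug and plating therefore cannot be told apart in this comparison, and the values below describe how far the treated EBs were from the untreated day 8 state. In RNA from whole EBs, fewer cells of a type and less RNA per cell cannot be told apart either.

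Calcineurin is a calcium-dependent phosphatase that moves NFAT transcription factors into the nucleus, and FK506 and CsA inhibit it through the immunophilins they bind. In differentiating embryonic stem cells, bone morphogenetic protein (BMP) signalling acts through Smad proteins to favour mesoderm and surface ectoderm, and its absence favours neural ectoderm. Cells on the mesodermal path pass through a primitive streak-like state marked by Mixl1 and Mesp1, and later form lateral plate, heart, blood and vessel cells.

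Over all genes the treated day 6 EBs lay between the untreated EBs of day 6 and those of day 8, and nearer to day 6. Each array was placed on an axis that runs, over the 19938 genes, from the mean of the untreated day 4 arrays at 0 to the mean of the untreated day 12 arrays at 1. The treated day 6 arrays lay at 0.317, 0.249 and 0.295 in replicates 1, 2 and 3, against 0.510, 0.400 and 0.503 for the untreated day 8 arrays and 0.243, 0.207 and 0.245 for the untreated day 6 arrays. The 3 treated day 6 arrays fell below all 3 untreated day 8 arrays and above all 3 untreated day 6 arrays. The mean difference of treated day 6 from untreated day 8 was -0.184, and that of treated day 6 from untreated day 6 was 0.055. Both gave p = 0.1 in an exact two-sided permutation test, the smallest value that 3 against 3 arrays allow. Replicate 2 lay lowest in every one of these groups. The SD over genes between a treated day 6 array and the untreated day 6 mean was 0.177 to 0.221 log2 units, against 0.320 to 0.344 for the distance to the untreated day 8 mean.

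**Figure D1:**
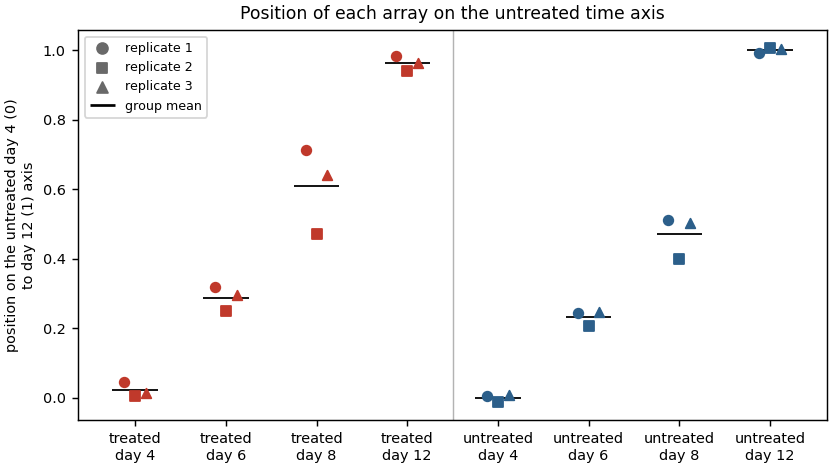
Position of each of the 24 arrays on the axis from the untreated day 4 mean (0) to the untreated day 12 mean (1), with no unit, by day of collection. All treated groups are on the left and all untreated groups on the right, each set in order of day. Marker shapes are replicates and bars are group means. The 3 treated day 6 arrays sit between 0.249 and 0.317, below the untreated day 8 arrays at 0.400 to 0.510.

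In the test across all genes (limma, Benjamini-Hochberg adjusted p under 0.05), 4036 of 19938 genes were higher in treated day 6 than in untreated day 8 EBs, which is 20.2%, and 3784 were lower, which is 19.0%. Calls in either direction thus covered 39.2% of genes, and the 3 arrays of one group lay wholly above or wholly below those of the other in 25.9% of genes each way. These shares are the background against which every gene list below is read. The median difference over all genes was -0.03. Calls with at least a 2-fold difference were fewer, at 74 higher (0.371%) and 114 lower (0.572%). Leaving out replicate 1 of untreated day 8 reduced the lower calls to 2113. On the same threshold, and sharing arrays with this comparison, untreated day 8 against untreated day 6 gave 3544 genes higher (17.8%) and 3653 lower (18.3%), and treated day 6 against untreated day 6 gave 251 higher (1.26%) and 115 lower (0.577%).

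**Figure D2:**
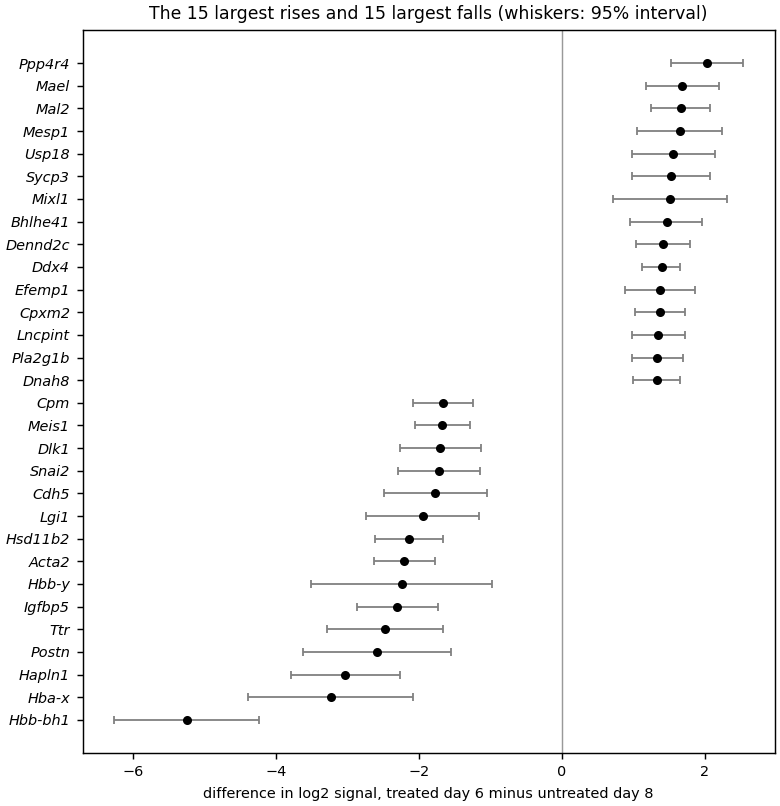
The 15 genes with the largest higher and the 15 with the largest lower difference, treated day 6 minus untreated day 8, among called genes whose arrays do not overlap. The horizontal axis is the log2 difference, points are estimates and lines are 95% intervals from the fit; Hbb-bh1 lies farthest from 0 at -5.25 and Ppp4r4 is the largest rise at 2.04.

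Single genes of the BMP pathway stood near their untreated day 8 level, beyond it or well short of it. Of 23 measured BMP-Smad targets, 3 were higher (13%), 8 were lower (34.8%) and 12 were not called, with a median difference of -0.11. Over all genes 20.2% were higher and 19.0% lower. With 1 array left out at a time the higher calls ranged from 0 to 4 and the lower calls from 6 to 9; there were 0 higher calls without treated day 6 replicate 1, 0 without untreated day 8 replicate 2 and 0 after quantile normalization. The medians of the same list were 0.85 for untreated day 8 minus untreated day 6 and 0.60 for treated day 6 minus untreated day 6, which share arrays with this comparison.

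Smad6, an inhibitory Smad that BMP signalling itself induces, had 9.99, 9.01 and 9.52 log2 units in treated day 6 EBs, against 9.91, 9.11 and 9.69 in untreated day 8 EBs and 8.50, 8.15 and 8.38 in untreated day 6 EBs. Values of treated day 6 and untreated day 8 overlapped, and both lay above every untreated day 6 array. The difference from untreated day 8 was -0.06 (95% interval -0.46 to 0.34, adjusted p = 0.825). Msx2, a homeobox target of BMP signalling, had 11.01, 9.74 and 10.54 in treated day 6 EBs, against 10.48, 9.49 and 10.17 in untreated day 8 EBs and 8.61, 7.73 and 8.59 in untreated day 6 EBs. Its difference from untreated day 8 was 0.38 (95% interval -0.18 to 0.94, adjusted p = 0.268). Id1, an inhibitor of bHLH factors, differed by 0.12 (95% interval -0.23 to 0.47, adjusted p = 0.589). None of the 3 was called in this fit. Msx2 was called higher without treated day 6 replicate 2 (0.73, adjusted p = 0.0385) and in the fit of the 6 arrays alone with the replicate number as a block (0.38, adjusted p = 0.00622), where arrays are compared within a number.

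Id2, a second bHLH inhibitor, stood between the days. It had 11.29, 10.71 and 11.28 in treated day 6 EBs, against 12.45, 11.98 and 12.22 in untreated day 8 EBs and 10.49, 10.38 and 10.51 in untreated day 6 EBs. All treated day 6 arrays were below every untreated day 8 array and above every untreated day 6 array, with a difference of -1.12 (SE 0.13, adjusted p = 6.81e-06) from untreated day 8. Id3 was lower by a smaller amount, -0.55 (adjusted p = 0.00754). Atoh8, a bHLH gene counted among BMP targets, stood at the untreated day 6 level, with 7.39, 7.34 and 7.46 in treated day 6 EBs, against 8.50, 8.20 and 8.25 in untreated day 8 EBs and 7.50, 7.37 and 7.31 in untreated day 6 EBs (difference from untreated day 8 -0.92, SE 0.09, adjusted p = 1.7e-06).

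Among 16 BMP ligands, receptors and signalling Smads, 3 were higher and 3 lower (18.8% each), near the shares of 20.2% and 19.0% over all genes. Bmp4, the ligand that patterns the early mesoderm, had 11.79, 11.10 and 11.61 in treated day 6 EBs, against 12.06, 11.44 and 11.93 in untreated day 8 EBs and 10.33, 10.02 and 10.53 in untreated day 6 EBs. Replicates of the treated day 6 and untreated day 8 EBs overlapped, and the difference of -0.31 was not called (95% interval -0.63 to 0.01, adjusted p = 0.116). It was called lower in the 6-array fit with the replicate block (adjusted p = 0.00883), without treated day 6 replicate 1 (-0.45, adjusted p = 0.0402) and without untreated day 8 replicate 2 (-0.50, adjusted p = 0.0176). Bmp5 reached a lower level, with 9.65, 8.52 and 9.46 in treated day 6 EBs, against 11.06, 9.98 and 10.52 in untreated day 8 EBs and 7.62, 7.08 and 7.72 in untreated day 6 EBs. Every treated day 6 array of Bmp5 lay between those of the 2 untreated days, at -1.31 from untreated day 8 (SE 0.27, adjusted p = 0.000985) and 1.74 from untreated day 6 (adjusted p = 0.00112). Bmp2, a related ligand, was lower by a difference of -0.92 (SE 0.25, adjusted p = 0.00766) and Bmp6 by -0.30 (adjusted p = 0.00296). The signal-transducing Smad1 was higher at 0.41 (adjusted p = 0.00321). Of this list, 5 members were lower without untreated day 8 replicate 2 and 6 after quantile normalization.

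Of 13 secreted BMP antagonists and modulators, 2 were higher and 6 lower, and with 1 array left out at a time the lower calls ranged from 2 to 5, while quantile normalization gave 0 higher and 3 lower. Nog, which encodes the antagonist noggin, had 7.65, 7.30 and 7.46 in treated day 6 EBs, against 7.96, 8.08 and 8.09 in untreated day 8 EBs, without overlap (difference -0.57, adjusted p = 0.000126). Fstl1, a follistatin-like secreted protein, was lower at -0.55. Bmper, a BMP-binding modulator, was higher at 0.54 (adjusted p = 0.0369), a call that ended when treated day 6 replicate 1 was left out (0.34, adjusted p = 0.206).

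The regulators of lateral plate and allantois, the mesoderm that forms body wall, heart and extraembryonic vessels, had moved away from the untreated day 6 level but on balance stood below untreated day 8. Of 20 measured, 1 was higher and 8 were lower, with a median of -0.47, against medians of 1.23 for untreated day 8 minus untreated day 6 and 1.25 for treated day 6 minus untreated day 6. The lower calls numbered 4 without untreated day 8 replicate 1 and at most 11 with another array left out.

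Foxf1, a forkhead factor of lateral plate mesoderm at chr8:121084386-121088154 in the reference annotation, had 11.31, 9.88 and 11.08 in treated day 6 EBs, against 11.22, 10.26 and 11.16 in untreated day 8 EBs and 8.09, 7.77 and 8.33 in untreated day 6 EBs. These treated day 6 values overlapped those of untreated day 8 and stood above all untreated day 6 values, at -0.12 from untreated day 8 (95% interval -0.69 to 0.44, adjusted p = 0.738) and 2.69 from untreated day 6 (adjusted p = 1.7e-05). Hand1, a bHLH factor of extraembryonic and cardiac mesoderm, had 11.26, 9.72 and 10.72 in treated day 6 EBs, against 11.66, 10.21 and 11.43 in untreated day 8 EBs and 8.42, 8.13 and 8.71 in untreated day 6 EBs. Its difference from untreated day 8 was -0.53 (95% interval -1.16 to 0.09, adjusted p = 0.161) and was called lower in the 6-array fit with the replicate block (adjusted p = 0.00165), without treated day 6 replicate 1 (-0.88, adjusted p = 0.0302) and without untreated day 8 replicate 2 (-0.98, adjusted p = 0.00844). Replicate 2 was the lowest array of both genes in each of the 3 groups. Gata4 (0.06, 95% interval -0.39 to 0.52), Msx1 (0.03, 95% interval -0.39 to 0.45) and Pdgfra (0.13, adjusted p = 0.726) were likewise not called.

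Tbx3, a T-box factor of this mesoderm, was called higher than in untreated day 8 EBs, although the arrays of the 2 groups overlapped. It had 11.17, 10.23 and 10.61 in treated day 6 EBs, against 10.30, 9.50 and 10.16 in untreated day 8 EBs and 9.21, 8.39 and 9.13 in untreated day 6 EBs. Its difference of 0.68 (SE 0.21, adjusted p = 0.0163) was 0.43 (adjusted p = 0.122) without treated day 6 replicate 1 and 0.44 (adjusted p = 0.119) without untreated day 8 replicate 2. The Tbx3 call also ended after quantile normalization and in the fit of the 6 arrays alone. Hand2, the related bHLH factor of heart and limb, was short of the later level. It had 9.08, 8.13 and 8.50 in treated day 6 EBs, against 10.16, 8.87 and 9.53 in untreated day 8 EBs, a difference of -0.95 (SE 0.25, adjusted p = 0.00605) that was -0.63 (adjusted p = 0.0611) without untreated day 8 replicate 1. Pitx1, a homeobox gene of hindlimb mesoderm, was lower at -0.96 (adjusted p = 0.000686). A gene with one of the largest untreated rises but no member of this list, the netrin receptor gene Unc5c, had 10.05, 7.98 and 10.01 in treated day 6 EBs, against 10.97, 9.79 and 10.77 in untreated day 8 EBs and 7.26, 7.17 and 7.35 in untreated day 6 EBs. The difference of -1.16 (adjusted p = 0.0134) was -0.48 (adjusted p = 0.104) without treated day 6 replicate 2, which was far below the other treated arrays, and -0.93 (adjusted p = 0.0803) without untreated day 8 replicate 1.

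**Figure D3:**
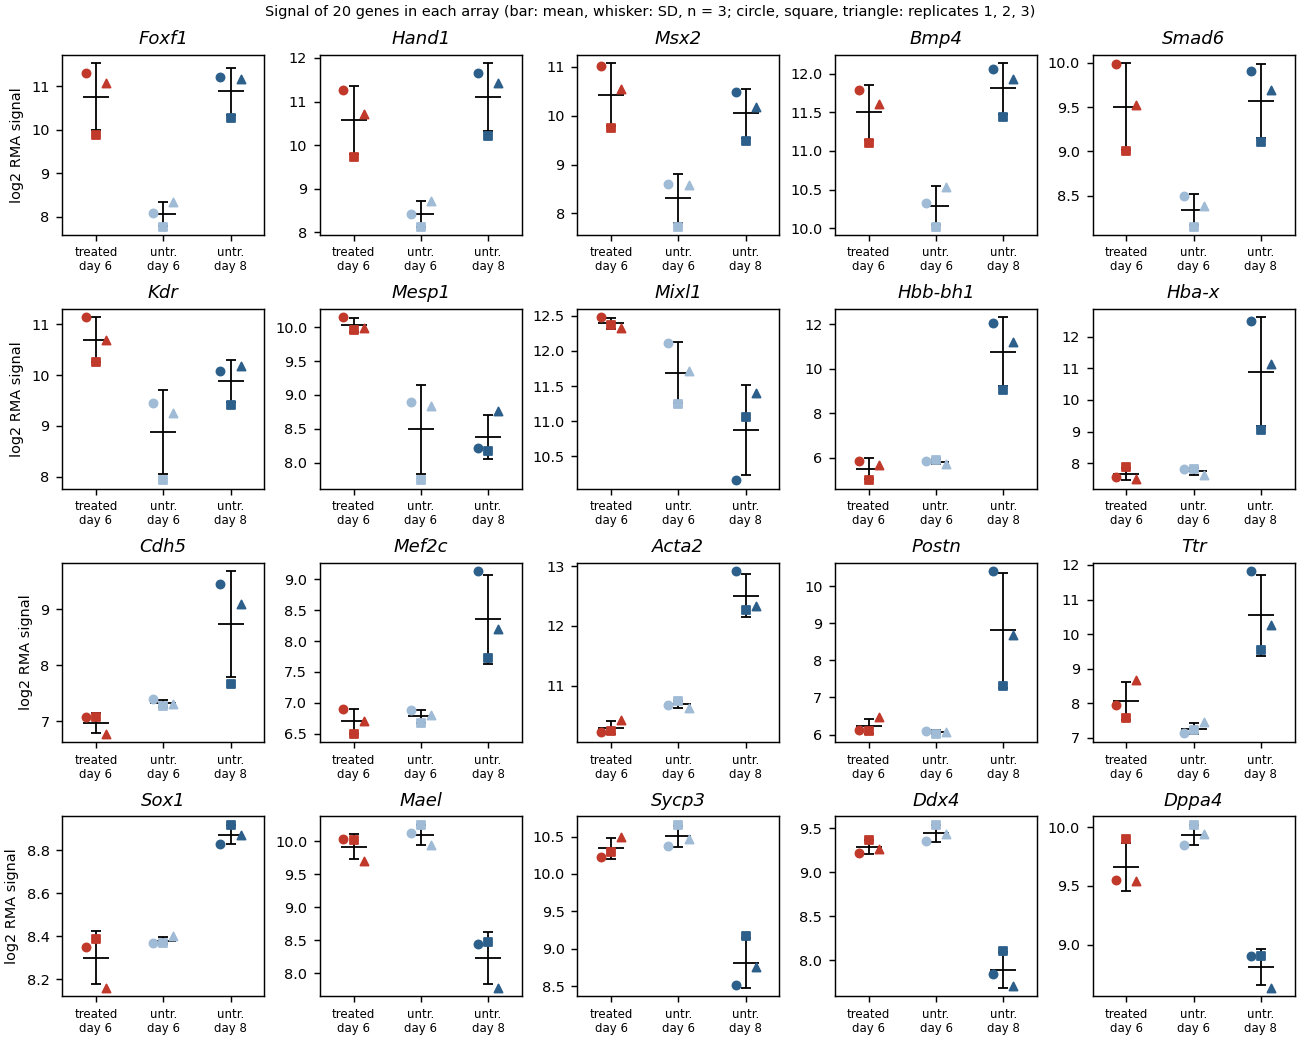
Log2 intensity of 20 genes in treated day 6, untreated day 6 and untreated day 8 EBs, with a separate vertical range in each panel. Points are arrays, horizontal bars are means and whiskers are the SD of 3 arrays. The treated day 6 arrays of Foxf1, Hand1, Msx2, Bmp4 and Smad6 overlap those of untreated day 8. Those of Mesp1 and Mixl1 lie above untreated day 8, and those of Hbb-bh1, Cdh5, Acta2 and Postn lie at or near untreated day 6.

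The primitive streak and mesendoderm genes were the mesodermal list with the most members above untreated day 8. Of 19 measured, 9 were higher and 2 lower, a median of 0.49, against -0.11 for untreated day 8 minus untreated day 6 and 0.30 for treated day 6 minus untreated day 6. The higher calls numbered 5 without treated day 6 replicate 2 and 5 without untreated day 8 replicate 1.

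Mesp1, the bHLH factor of nascent cardiac mesoderm at chr7:79792241-79793590, had 10.15, 9.96 and 9.99 in treated day 6 EBs, against 8.22, 8.17 and 8.76 in untreated day 8 EBs and 8.90, 7.74 and 8.84 in untreated day 6 EBs. All treated day 6 arrays were above every array of both untreated days, 3.14-fold above untreated day 8 (log2 difference 1.65, SE 0.28, adjusted p = 1.86e-04) and by 1.54 log2 units above untreated day 6 (adjusted p = 0.00424). Its mean in treated day 8 EBs was 7.88 ± 0.77 (SD, n = 3). Mixl1, a homeobox gene of the streak, had 12.48, 12.37 and 12.32 in treated day 6 EBs, against 10.16, 11.06 and 11.40 in untreated day 8 EBs and 12.11, 11.24 and 11.72 in untreated day 6 EBs. Its difference was 1.52 from untreated day 8 (SE 0.38, adjusted p = 0.00416), while that from untreated day 6 was not called (0.70, adjusted p = 0.492). Wnt3, the ligand needed to form the streak, had 10.24, 9.93 and 9.97 in treated day 6 EBs, against 8.52, 8.74 and 8.90 in untreated day 8 EBs and 9.34, 8.85 and 9.19 in untreated day 6 EBs. It stood above both untreated days without overlap, by 1.33 from day 8 (SE 0.20, adjusted p = 6.77e-05) and 0.92 from day 6 (adjusted p = 0.0172).

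Smaller rises were found in Evx1, a homeobox gene of the posterior streak (0.52, adjusted p = 0.0018), and in Snai1, a repressor of epithelial genes (0.54, adjusted p = 0.00391). The members that were lower were Foxa2, a factor of anterior streak and endoderm (-0.76, adjusted p = 0.00235), and Cer1, a secreted Nodal and BMP antagonist (-1.04, adjusted p = 0.0459). The Cer1 call ended without treated day 6 replicate 1 (adjusted p = 0.136), treated day 6 replicate 3 (0.145), untreated day 8 replicate 2 (0.137) and untreated day 8 replicate 3 (0.2). Eomes, a T-box factor of the streak, was 0.64 higher without a call (adjusted p = 0.1), but was called in the fit of the 6 arrays alone (adjusted p = 0.0196). Among 17 presomitic mesoderm and Cdx genes, 4 were higher and 4 lower (23.5% each), near the shares of 20.2% and 19.0% over all genes. The median was 0.04, and 0.00 after quantile normalization. The higher calls numbered 2 without untreated day 8 replicate 2 and 2 after quantile normalization, and the lower calls 2 without treated day 6 replicate 1, treated day 6 replicate 3 or untreated day 8 replicate 1. Tbx6, needed for paraxial mesoderm, had 9.27, 9.26 and 9.24 in treated day 6 EBs, against 8.29, 8.60 and 8.93 in untreated day 8 EBs (difference 0.65, adjusted p = 0.00376), and Msgn1, another factor of presomitic mesoderm, was higher at 0.76 (adjusted p = 0.00326).

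Of 16 interferon-stimulated genes 2 were higher and 0 lower, with a median of 0.05. One of them was Usp18, which encodes a protease that removes ISG15 and restrains interferon signalling, and which was among the 15 largest rises. It had 10.66, 10.13 and 10.34 in treated day 6 EBs, against 8.40, 9.09 and 8.97 in untreated day 8 EBs and 8.83, 7.88 and 8.72 in untreated day 6 EBs. Every treated day 6 array exceeded every array of both untreated groups, and the difference from untreated day 8 was 1.56 (SE 0.28, adjusted p = 0.000287). L1cam, a neural adhesion molecule from the neuronal list, had 9.84, 9.14 and 9.15 in treated day 6 EBs, against 8.10, 8.18 and 8.59 in untreated day 8 EBs (difference 1.09, adjusted p = 9.83e-05). Cpxm2, a carboxypeptidase-like secreted protein, was higher at 1.38 (adjusted p = 9.63e-06).

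Blood and vessel genes were low in the treated EBs on day 6. Of 18 embryonic globin and erythroid genes, 14 were lower and 1 was higher, with a median of -0.71, against 0.70 for untreated day 8 minus untreated day 6 and -0.07 for treated day 6 minus untreated day 6. The lower calls numbered 11 to 15 with 1 array left out at a time. The promoter of Hba-x is shown because this gene has one of the largest falls of the comparison; it runs 5′ to 3′ from 250 bases before to 50 bases after the annotated start on the plus strand of chr11:32276350-32276649 (RefSeq, GRCm38.p6), with CACCC and TATAAA in capitals.
Hba-x: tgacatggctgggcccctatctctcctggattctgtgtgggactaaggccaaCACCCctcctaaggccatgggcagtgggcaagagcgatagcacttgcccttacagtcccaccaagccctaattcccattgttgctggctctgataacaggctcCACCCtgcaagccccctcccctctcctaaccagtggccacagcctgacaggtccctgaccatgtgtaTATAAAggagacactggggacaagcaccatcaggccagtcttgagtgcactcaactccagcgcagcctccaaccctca
CACCC, the core letters read by erythroid Krüppel-like factors, stands at -198 and -95 from the start, and TATAAA stands at -28. Searched on both strands, CACCC is present in 57.5% and TATAAA in 13.6% of the 32851 promoter windows of that annotation. A match describes these letters and not a bound site.

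Hbb-bh1, the embryonic beta-type globin at chr7:103841638-103843162, had 5.85, 4.98 and 5.69 in treated day 6 EBs, against 12.05, 9.03 and 11.19 in untreated day 8 EBs and 5.87, 5.91 and 5.70 in untreated day 6 EBs. All treated day 6 arrays stood within or below the untreated day 6 range, 38.1-fold below untreated day 8 (log2 difference -5.25, SE 0.49, adjusted p = 8.14e-07). In treated day 8 EBs, 2 days later, its mean was 11.39 ± 0.98 (SD, n = 3). Hba-x, the embryonic alpha-type globin, had 7.57, 7.88 and 7.51 in treated day 6 EBs, against 12.48, 9.05 and 11.14 in untreated day 8 EBs and 7.80, 7.82 and 7.61 in untreated day 6 EBs. It was 9.41-fold below untreated day 8 (log2 difference -3.23, SE 0.56, adjusted p = 0.000192). Replicate 2 was the lowest untreated day 8 array for both globins. The globin Hbb-y was lower at -2.24 (SE 0.61, adjusted p = 0.00685), and at -1.40 (adjusted p = 0.07) without untreated day 8 replicate 1.

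Gata1, the master factor of red cells, had 6.97, 7.08 and 7.19 in treated day 6 EBs, against 8.65, 7.85 and 8.35 in untreated day 8 EBs (difference -1.20, adjusted p = 1.64e-05). The factors that act with it in blood progenitors were lower too, Tal1 at -0.84 (adjusted p = 2.14e-05), Gfi1b at -0.98 (adjusted p = 2.67e-05) and Lmo2 at -0.85 (adjusted p = 0.000125). Tfrc, the transferrin receptor of all dividing cells, was the higher member at 0.25 (adjusted p = 0.0369), a call kept in 1 of the 6 fits that left out 1 array, with adjusted p of 0.0606 to 0.142 in the others.

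Among 23 endothelial genes, 15 were lower and 2 higher, with a median of -0.48. Cdh5, the vascular cadherin, had 7.07, 7.07 and 6.77 in treated day 6 EBs, against 9.45, 7.67 and 9.10 in untreated day 8 EBs and 7.39, 7.27 and 7.31 in untreated day 6 EBs. The treated day 6 arrays were below every untreated array of both days, at -1.77 from untreated day 8 (SE 0.35, adjusted p = 0.000603). The endothelial transcription factors Erg (-0.97, adjusted p = 1.18e-05), Sox18 (-0.87, adjusted p = 6.81e-06), Sox7 (-0.96, adjusted p = 7.3e-06) and Fli1 (-1.13, adjusted p = 0.000398) were lower. Kdr, the VEGF receptor that also marks early lateral mesoderm, went the other way, with 11.14, 10.26 and 10.69 in treated day 6 EBs, against 10.07, 9.42 and 10.18 in untreated day 8 EBs and 9.46, 7.93 and 9.26 in untreated day 6 EBs. Its difference of 0.81 (SE 0.28, adjusted p = 0.0294) was 0.58 (adjusted p = 0.146) without treated day 6 replicate 1, 0.81 (adjusted p = 0.0647) without treated day 6 replicate 3 and 0.57 (adjusted p = 0.151) without untreated day 8 replicate 2. Etv2, the factor that starts the blood and endothelial lineages, differed by 0.18 without a call (adjusted p = 0.524). Eng, a TGF-beta co-receptor, was the other higher member at 0.39 (adjusted p = 0.0243). Its call ended without treated day 6 replicate 1 (0.33, adjusted p = 0.0909), treated day 6 replicate 3 (0.40, adjusted p = 0.054) or untreated day 8 replicate 2 (0.26, adjusted p = 0.154), and 0 members were higher after quantile normalization.

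Heart genes were mostly lower or not called. Of 15 cardiac transcription factors, 8 were lower and 0 higher (median -0.53), and of 24 sarcomere and contraction genes 14 were lower and 0 higher (median -0.41). Without untreated day 8 replicate 1 the lower calls numbered 4 among the factors and 7 among the sarcomere genes. Mef2c, a factor of the second heart field and muscle, had 6.90, 6.49 and 6.71 in treated day 6 EBs, against 9.14, 7.73 and 8.19 in untreated day 8 EBs and 6.88, 6.67 and 6.80 in untreated day 6 EBs. In treated day 6 EBs it lay at the untreated day 6 level, with a difference of -1.66 from untreated day 8 (SE 0.23, adjusted p = 3.17e-05). Myocd, the coactivator of cardiac and smooth muscle genes, was lower at -1.25 (adjusted p = 0.000677), Gata5 at -1.03 (adjusted p = 0.00111) and Nkx2-5 at -0.50 (adjusted p = 0.000475). The T-box factor Tbx20 (-0.37, adjusted p = 0.325) and the zinc-finger factor Gata6 (-0.30, adjusted p = 0.227) were not called, except in the 6-array fit with the replicate block (adjusted p = 0.00866 and 0.0409). Tnnt2, cardiac troponin T, had 8.16, 7.85 and 8.06 in treated day 6 EBs, against 10.16, 8.26 and 9.15 in untreated day 8 EBs and 7.83, 7.70 and 7.69 in untreated day 6 EBs (difference from untreated day 8 -1.16, SE 0.27, adjusted p = 0.0023). Myl7, an atrial myosin light chain, differed by 0.04 without a call (adjusted p = 0.936).

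Some genes of matrix-forming and contractile cells, Acta2 and Postn among them, were far below untreated day 8, while other members of their lists were not called. Of 31 mesenchyme and extracellular matrix genes, 16 were lower and 2 higher (median -0.50), and of 21 smooth muscle and adhesion-linked targets of the actin-responsive factor SRF, 10 were lower and 0 higher (median -0.28), or 6 lower without untreated day 8 replicate 1. Acta2, smooth muscle actin, had 10.23, 10.24 and 10.42 in treated day 6 EBs, against 12.92, 12.27 and 12.33 in untreated day 8 EBs and 10.68, 10.75 and 10.63 in untreated day 6 EBs. All treated day 6 arrays were below every untreated array of both days, 4.61-fold below untreated day 8 (log2 difference -2.21, SE 0.21, adjusted p = 8.14e-07). Postn, which encodes the matrix protein periostin, had 6.11, 6.09 and 6.46 in treated day 6 EBs, against 10.41, 7.32 and 8.68 in untreated day 8 EBs and 6.10, 6.01 and 6.08 in untreated day 6 EBs (difference from untreated day 8 -2.59, SE 0.50, adjusted p = 0.00054). The untreated day 8 EBs had been plated the day before and the treated day 6 EBs had not, and the part of plating in these differences was not tested.

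Other matrix genes varied in where they stood. Hapln1, which links hyaluronan to proteoglycans, had 6.18, 5.77 and 6.36 in treated day 6 EBs, against 10.12, 7.76 and 9.51 in untreated day 8 EBs, a difference of -3.03 (SE 0.37, adjusted p = 8.06e-06). Snai2, a repressor of epithelial genes in migrating cells, stood between the days, with 8.84, 8.28 and 9.10 in treated day 6 EBs, against 11.26, 9.59 and 10.54 in untreated day 8 EBs and 8.07, 7.65 and 7.66 in untreated day 6 EBs (difference from untreated day 8 -1.72, SE 0.27, adjusted p = 9.74e-05). The proteoglycan Vcan was lower at -1.17 (adjusted p = 3.05e-05). Col1a1, a collagen I chain, was lower at -0.70 (adjusted p = 0.0167), and the call ended without treated day 6 replicate 2 (-0.50, adjusted p = 0.103) or untreated day 8 replicate 1 (-0.52, adjusted p = 0.109). Bgn, which encodes the small proteoglycan biglycan, was higher, with 9.71, 9.68 and 9.61 in treated day 6 EBs, against 8.58, 8.89 and 8.82 in untreated day 8 EBs (difference 0.90, adjusted p = 0.000143).

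Several single genes with large untreated rises after day 6 were also low. Igfbp5, an IGF-binding protein, had 7.65, 7.30 and 7.17 in treated day 6 EBs, against 10.21, 9.09 and 9.74 in untreated day 8 EBs (difference -2.31, SE 0.27, adjusted p = 6.81e-06). Hsd11b2, the enzyme that inactivates cortisol, had 8.47, 7.97 and 7.96 in treated day 6 EBs, against 10.63, 9.89 and 10.32 in untreated day 8 EBs (difference -2.14, SE 0.23, adjusted p = 3.32e-06). Dlk1, an imprinted relative of the Notch ligands, had 9.53, 8.97 and 9.30 in treated day 6 EBs, against 11.66, 10.28 and 10.96 in untreated day 8 EBs (difference -1.70, SE 0.27, adjusted p = 0.000109). No treated day 6 array of these 3 genes overlapped the untreated day 8 arrays. Meis1, a homeobox cofactor of Hox proteins, was lower at -1.68 (SE 0.19, adjusted p = 4.24e-06).

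Part of the endoderm genes were lower. Of 19 visceral endoderm and serum protein genes, 11 were lower and 0 higher (median -0.52), or 5 lower without untreated day 8 replicate 1, and of 14 definitive endoderm genes 5 were lower and 1 higher (median -0.29). Ttr, the thyroid hormone carrier transthyretin, had 7.95, 7.57 and 8.67 in treated day 6 EBs, against 11.83, 9.54 and 10.25 in untreated day 8 EBs and 7.13, 7.23 and 7.45 in untreated day 6 EBs. Its treated day 6 arrays lay below all untreated day 8 arrays, 5.58-fold on average (log2 difference -2.48, SE 0.39, adjusted p = 9.07e-05), and above all untreated day 6 arrays by a difference that was not called (0.79, adjusted p = 0.427). Foxa1, a pioneer factor of endoderm, had 8.50, 8.08 and 8.28 in treated day 6 EBs, against 9.54, 9.29 and 9.54 in untreated day 8 EBs (difference -1.17, adjusted p = 9.14e-06). Dab2, an endocytic adaptor of visceral endoderm, was lower at -1.13 (adjusted p = 0.000108). Rbp4, the retinol carrier, was lower at -1.40 (adjusted p = 0.00527), and at -0.82 (adjusted p = 0.0532) without untreated day 8 replicate 1.

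The Hox genes, which specify position along the body, were lower or not called. Of 14 anterior Hox genes 7 were lower and 0 higher (median -0.38), or 4 lower without untreated day 8 replicate 1 and 4 after quantile normalization. The cofactor genes Meis1 and Meis2, listed with them, make 16 entries. Of 18 posterior Hox genes 8 were lower and 0 higher (median -0.37), or 5 lower without untreated day 8 replicate 1 and 3 after quantile normalization (median -0.21). Hoxc8 had 7.16, 6.83 and 6.72 in treated day 6 EBs, against 8.44, 7.57 and 8.34 in untreated day 8 EBs (difference -1.21, adjusted p = 0.000219). Hoxd4 was lower at -0.95 (adjusted p = 0.000816) and Hoxd9 at -0.77 (adjusted p = 0.000138).

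The neural programme had the highest share of lower calls among the ectodermal lists. Of 31 neural progenitor genes, 20 were lower and 0 higher, with a median of -0.45, against 0.41 for untreated day 8 minus untreated day 6 and -0.08 for treated day 6 minus untreated day 6. With 1 array left out at a time the lower calls numbered 17 to 20. Sox1, the earliest marker of committed neural ectoderm and the gene that carries the line's reporter, had 8.35, 8.39 and 8.16 in treated day 6 EBs, against 8.83, 8.92 and 8.87 in untreated day 8 EBs and 8.37, 8.37 and 8.40 in untreated day 6 EBs. The treated day 6 arrays did not overlap those of untreated day 8 (difference -0.57, SE 0.09, adjusted p = 5.41e-05). In treated day 8 EBs its mean was 8.46 ± 0.04 (SD, n = 3).

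Zic1, a zinc-finger factor of dorsal neural tissue, had 6.43, 6.44 and 6.41 in treated day 6 EBs, against 7.40, 7.67 and 7.81 in untreated day 8 EBs and 6.44, 6.28 and 6.39 in untreated day 6 EBs (difference from untreated day 8 -1.20, SE 0.17, adjusted p = 2.63e-05). Its mean in treated day 8 EBs was 6.52 ± 0.09 (SD, n = 3), so that on this scale the treated EBs stood near 6.4 to 6.5 on both days. Hbb-bh1 in treated EBs was higher on day 8 than on day 6. Plating on day 7 falls between these collections, and its part was not tested. Irx3, a homeobox gene of the neural plate, had 7.67, 7.61 and 7.71 in treated day 6 EBs, against 8.45, 8.39 and 8.53 in untreated day 8 EBs (difference -0.79, SE 0.09, adjusted p = 5.55e-06). Pax3, a paired-box factor of dorsal neural tube, was lower at -1.05 (adjusted p = 2.94e-05) and Lhx2, a forebrain LIM factor, at -0.86 (adjusted p = 5.41e-05). Pax6, a factor of forebrain and eye, was lower at -0.57 (adjusted p = 0.00758), and at -0.44 (adjusted p = 0.0509) without untreated day 8 replicate 2. Sox2 differed by 0.10 and Nes by 0.40, neither of them called (adjusted p = 0.737 and 0.0655), although Nes was called in the fit of the 6 arrays alone (adjusted p = 0.0332).

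Of 36 neuronal genes 11 were lower and 5 higher (median -0.16). The higher calls numbered 2 without treated day 6 replicate 2 and the lower calls 7 without untreated day 8 replicate 2 and 7 after quantile normalization. Gap43, a growth cone protein, was lower at -0.75 and Gad2, a GABA-synthesising enzyme, at -0.65. Gad1, the other such enzyme, was higher at 0.51 (adjusted p = 0.000583). Of 16 neural crest genes 8 were lower and 0 higher (median -0.29), or 5 lower after quantile normalization, among them Sox9, a factor of crest and cartilage (-0.67, adjusted p = 0.00122).

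**Figure D4:**
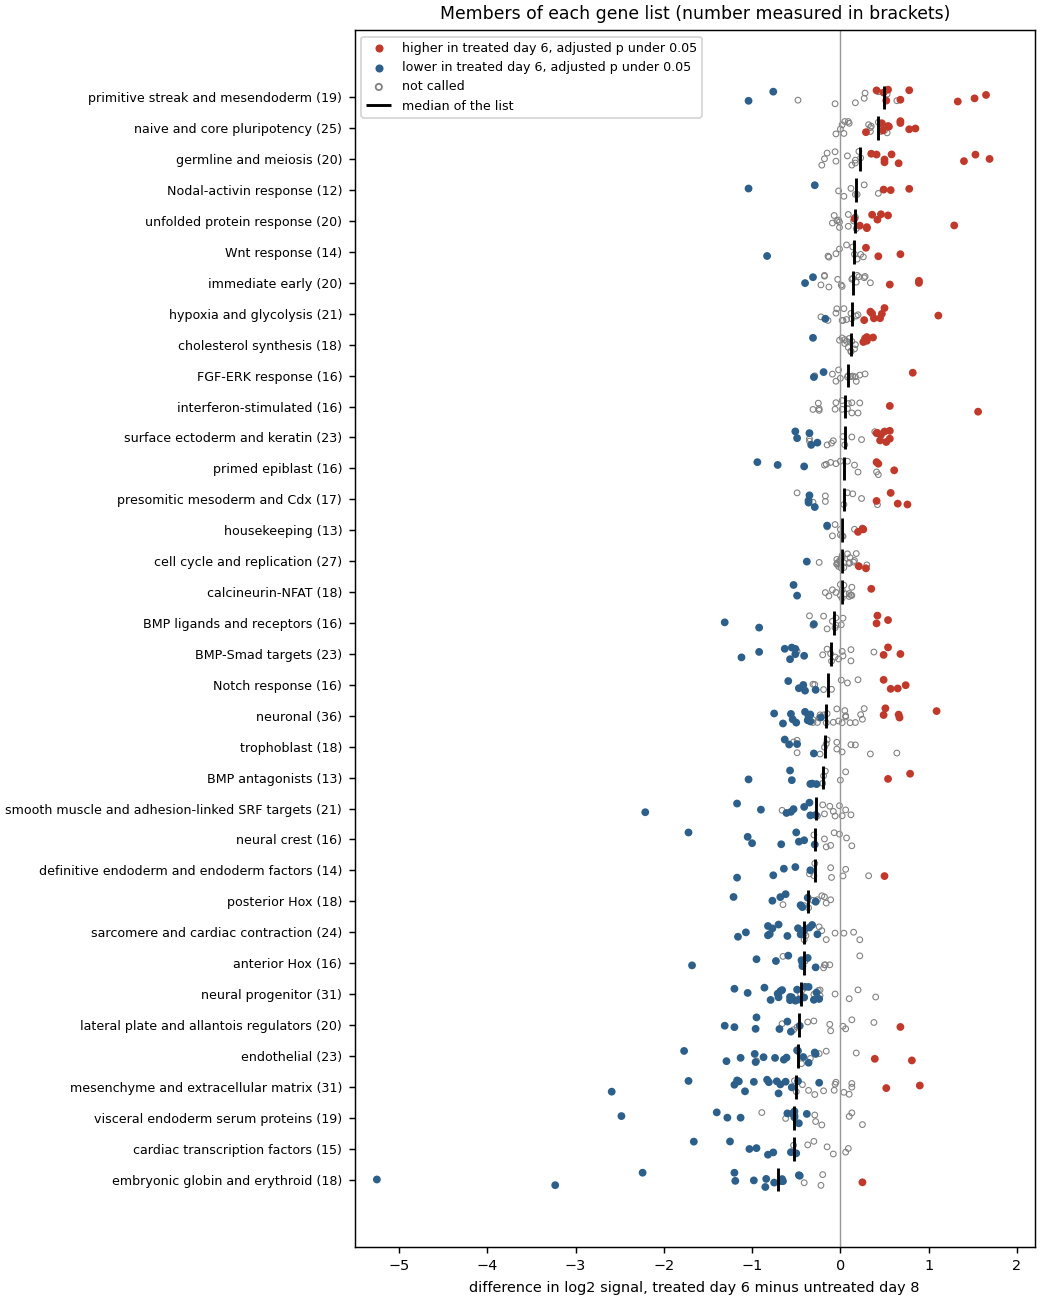
Log2 difference, treated day 6 minus untreated day 8, of every measured member of the gene lists, 1 row per list. Red points are members called higher, blue points members called lower, hollow points members not called, and the black mark is the list's median. The globin and erythroid list reaches -5.25 at Hbb-bh1, and the primitive streak list has a median of 0.49.

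Several germline and meiosis genes, which were lower in untreated day 8 than in untreated day 6 EBs, were still at about their day 6 level in the treated EBs. Of 20 measured, 9 were higher and 0 lower, with a median of 0.22, against -0.23 for untreated day 8 minus untreated day 6 and -0.02 for treated day 6 minus untreated day 6. With 1 array left out at a time the higher calls numbered 8 or 9. The promoters of the 3 members with the largest differences are shown because this class of gene is known to be silenced in the early embryo partly through E-box-binding repressors such as the one containing MGA and MAX. Each runs 5′ to 3′ from 250 bases before to 50 bases after the annotated start (RefSeq, GRCm38.p6), and the capitals mark the E-box letters CACGTG, which read the same on both strands. Mael is on the minus strand of chr1:166238695-166238994, Sycp3 on the plus strand of chr10:88459337-88459636 and Ddx4 on the minus strand of chr13:112652261-112652560.
Mael: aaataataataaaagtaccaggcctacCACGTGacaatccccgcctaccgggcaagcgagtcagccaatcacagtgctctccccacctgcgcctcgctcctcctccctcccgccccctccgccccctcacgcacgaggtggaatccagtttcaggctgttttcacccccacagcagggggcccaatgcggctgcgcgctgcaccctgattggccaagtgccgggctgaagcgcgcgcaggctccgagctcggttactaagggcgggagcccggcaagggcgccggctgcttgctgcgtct
Sycp3: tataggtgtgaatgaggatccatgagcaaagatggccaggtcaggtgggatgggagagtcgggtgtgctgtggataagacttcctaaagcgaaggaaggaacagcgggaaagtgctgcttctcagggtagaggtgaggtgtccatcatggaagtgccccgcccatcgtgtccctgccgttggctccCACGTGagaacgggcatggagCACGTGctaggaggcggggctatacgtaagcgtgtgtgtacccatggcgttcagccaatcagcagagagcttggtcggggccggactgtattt
Ddx4: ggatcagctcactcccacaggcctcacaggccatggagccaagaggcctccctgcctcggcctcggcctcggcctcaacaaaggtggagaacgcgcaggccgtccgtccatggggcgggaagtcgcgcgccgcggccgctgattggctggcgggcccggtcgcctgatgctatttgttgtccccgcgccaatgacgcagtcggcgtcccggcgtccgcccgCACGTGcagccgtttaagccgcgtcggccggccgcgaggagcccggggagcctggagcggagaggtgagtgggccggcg
CACGTG begins at -223 in Mael, at -64 and -43 in Sycp3 and at -29 in Ddx4. It is present in 7.15% of the 32851 promoter windows, or in 8.09% of the 27025 genes that have one. Of the 9 list members called higher with a window, 7 hold it (Mael, Sycp3, Ddx4, Stk31, Taf7l, Stag3 and Tdrd1), and of the 9 not called with a window, 2 hold it (Sycp1 and Hormad1). Sycp1 was called higher after quantile normalization (0.38, adjusted p = 0.049) and Hormad1 with the mean of its probe sets (0.49, adjusted p = 0.01). Tex101, which lacks the letters, was also called higher after quantile normalization (0.29, adjusted p = 0.0334). Smc1b, called higher without the letters, lost its call in several fits that left out 1 array, such as without treated day 6 replicate 2 (0.47, adjusted p = 0.0978). These counts describe letters and not bound sites. Whether the letters or a repressor that reads them have a part in these differences was not tested.

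Mael, a component of the piRNA pathway that protects germ cells from transposons, had 10.03, 10.02 and 9.70 in treated day 6 EBs, against 8.44, 8.47 and 7.78 in untreated day 8 EBs and 10.12, 10.24 and 9.94 in untreated day 6 EBs. The treated day 6 arrays were all above those of untreated day 8 and overlapped those of untreated day 6, 3.22-fold above untreated day 8 (log2 difference 1.69, SE 0.25, adjusted p = 4.23e-05). Sycp3, a structural protein of meiotic chromosomes, had 10.23, 10.30 and 10.50 in treated day 6 EBs, against 8.51, 9.17 and 8.75 in untreated day 8 EBs and 10.38, 10.66 and 10.47 in untreated day 6 EBs (difference from untreated day 8 1.53, SE 0.26, adjusted p = 0.000196). Ddx4, the germ cell RNA helicase Vasa, had 9.22, 9.37 and 9.26 in treated day 6 EBs, against 7.85, 8.11 and 7.71 in untreated day 8 EBs and 9.35, 9.54 and 9.43 in untreated day 6 EBs (difference from untreated day 8 1.40, SE 0.13, adjusted p = 8.14e-07). Stag3, a meiotic cohesin, was higher at 0.66 (adjusted p = 0.000226). The factors of primordial germ cell formation Prdm1 (-0.05, adjusted p = 0.804) and Tfap2c (0.17, adjusted p = 0.317) were not called.

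Of 25 naive and core pluripotency genes, 9 were higher and 0 lower, with a median of 0.43. With 1 array left out at a time the higher calls numbered 4 to 6, and each of the 6 arrays lowered them; quantile normalization gave 4 and array weights 14. Dppa4, a chromatin protein of pluripotent cells, had 9.55, 9.90 and 9.54 in treated day 6 EBs, against 8.90, 8.90 and 8.63 in untreated day 8 EBs and 9.85, 10.02 and 9.94 in untreated day 6 EBs (difference from untreated day 8 0.85, SE 0.24, adjusted p = 0.00758). Prdm14, a repressor that keeps naive pluripotency, had 8.24, 7.94 and 8.35 in treated day 6 EBs, against 7.77, 7.74 and 7.57 in untreated day 8 EBs and 7.54, 7.56 and 7.60 in untreated day 6 EBs. It exceeded every array of both untreated days, by 0.48 from day 8 (adjusted p = 0.00724) and 0.61 from day 6 (adjusted p = 0.0158). Pou5f1, the core pluripotency factor Oct4, had 12.20, 12.25 and 12.18 in treated day 6 EBs, against 11.49, 11.90 and 11.65 in untreated day 8 EBs, without overlap but also without a call (0.53, 95% interval 0.03 to 1.03, adjusted p = 0.084). It was called with array weights (0.48, adjusted p = 0.0404) and in the fits of the 6 arrays alone without and with the replicate block (adjusted p = 0.00438 and 0.00205). Nanog differed by 0.35 (95% interval -0.07 to 0.77, adjusted p = 0.171) and was called in the last of these fits (adjusted p = 0.0105).

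For primed epiblast genes the median of treated day 6 EBs was close to untreated day 8 and below untreated day 6. Single members ranged from -0.94 to 0.61 from untreated day 8. Of 16 measured, 3 were higher and 3 lower (18.8% each), near the shares of 20.2% and 19.0% over all genes. The median of 0.04 was -0.08 after quantile normalization, which gave 1 higher. The medians were -0.42 for untreated day 8 minus untreated day 6, with 7 members lower, and -0.39 for treated day 6 minus untreated day 6, with 3 lower. Fgf5, the growth factor that marks the primed epiblast, had 9.89, 10.70 and 10.39 in treated day 6 EBs, against 9.75, 10.76 and 10.48 in untreated day 8 EBs and 10.82, 10.98 and 11.09 in untreated day 6 EBs, with a 95% interval of -0.74 to 0.73 for the difference from untreated day 8 (adjusted p = 0.995). All treated day 6 arrays of Fgf5 were below all untreated day 6 arrays. Fzd2, a Wnt receptor, was lower, with 9.38, 9.38 and 9.37 in treated day 6 EBs, against 10.30, 10.32 and 10.31 in untreated day 8 EBs (difference -0.94, adjusted p = 1.1e-05). Sall2, a zinc-finger factor, was lower at -0.71 (adjusted p = 0.0024), and Sfrp2, a secreted Wnt modulator, was higher at 0.61 (adjusted p = 0.00208).

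Other genes that were lower in untreated day 8 than in untreated day 6 EBs stood near day 6 or between the 2 days. Ppp4r4, a regulatory subunit of protein phosphatase 4, had 9.77, 10.06 and 10.12 in treated day 6 EBs, against 7.59, 8.13 and 8.12 in untreated day 8 EBs and 9.61, 9.79 and 9.57 in untreated day 6 EBs, 4.11-fold above untreated day 8 (log2 difference 2.04, SE 0.24, adjusted p = 7.28e-06). Mal2, a membrane transport protein of epithelia, had 9.69, 10.14 and 9.63 in treated day 6 EBs, against 8.20, 8.34 and 7.92 in untreated day 8 EBs (difference 1.67, SE 0.20, adjusted p = 7.52e-06). Tmem154 was one that had moved part of the way, with 7.26, 7.78 and 7.14 in treated day 6 EBs, against 6.21, 6.90 and 6.51 in untreated day 8 EBs and 8.15, 8.92 and 8.55 in untreated day 6 EBs. All treated day 6 arrays of Tmem154 lay between those of the 2 untreated days, at 0.85 from day 8 (adjusted p = 0.00178) and -1.15 from day 6 (adjusted p = 0.0018).

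To describe later programmes without choosing genes on the compared arrays, gene groups were taken from contrasts of other days, each with at least a 2-fold called change, and counted in this comparison. Of 1064 genes higher in untreated day 12 than untreated day 6, 584 were lower in treated day 6 than in untreated day 8 EBs (54.9%), 17 were higher (1.6%) and the median was -0.39. Of the 733 genes lower in untreated day 12 than untreated day 6, 522 were higher (71.2%), 2 were lower (0.273%) and the median was 0.53. Drug treatment ended on day 8, so the treated day 12 EBs were collected after withdrawal. Of 1451 genes higher in treated day 12 than treated day 4, 603 were lower (41.6%) and 58 higher (4%), with a median of -0.29. Of 1089 genes lower in that contrast 684 were higher (62.8%) and 12 lower (1.1%). Genes of the untreated change from day 4 to day 6 had smaller medians, with 86 higher (30.6%) and 53 lower (18.9%) of the 281 that rose. Over all genes the corresponding shares were 20.2% higher and 19.0% lower. None of these group contrasts used the treated day 6 or untreated day 8 arrays, although those arrays share the fit's estimate of spread.

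**Figure D5:**
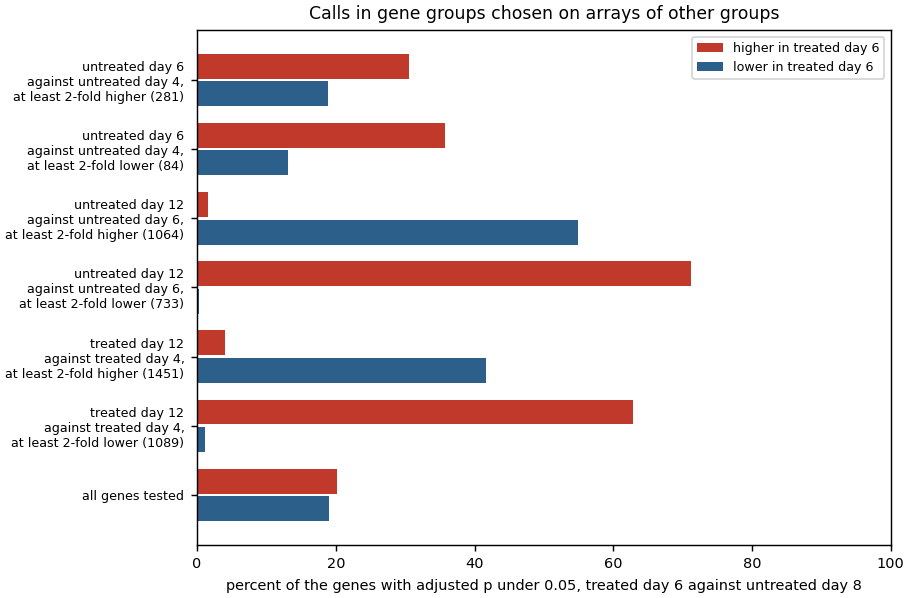
Percent of genes called higher and called lower, treated day 6 against untreated day 8, in 6 gene groups chosen on arrays of other days and over all 19938 genes. Bars start at 0; of the genes lower in untreated day 12 than in untreated day 6, 71.2% were higher in treated day 6 EBs, against 20.2% of all genes.

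The drug targets and their partners were mostly not called. Of 18 calcineurin, NFAT and immunophilin genes, 1 was higher and 2 lower, with a median of 0.02 that was -0.05 after quantile normalization, which gave 4 lower and 0 higher. Rcan1, an inhibitor of calcineurin whose transcription NFAT drives, had 10.02, 9.81 and 9.89 in treated day 6 EBs, against 10.23, 9.97 and 10.05 in untreated day 8 EBs (difference -0.17, adjusted p = 0.192). Ppp3ca, the catalytic subunit (-0.13, adjusted p = 0.182), and Nfatc1 (0.06, adjusted p = 0.676) were not called. After quantile normalization Rcan1 was called lower at -0.30 (adjusted p = 0.0186) and Ppp3ca at -0.27 (adjusted p = 0.00698), and without untreated day 8 replicate 2 Ppp3ca was called at -0.21 (adjusted p = 0.0468). Rcan2, a relative of Rcan1, was lower at -0.49 (adjusted p = 0.00379).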

How the data were processed

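Each of the 24 samples is 1 array of total RNA from whole EBs, in 8 groups of 3. The authors deposited log2 intensity values, which per the submitters' processing notes were made with RMA in Affymetrix Expression Console; the log2 scale was checked on the values. No background-detection calls were used here, so low values have no stated floor. Precision is limited by how many arrays each group has. Array medians were 7.8 to 7.88. The closest pair of arrays differed by an SD of 0.175 over all probe sets, and none were identical.

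Of 35556 probe sets, 21789 carried 1 gene symbol, 1621 several and 12146 none in the platform annotation. The probe set with the highest mean was taken for each of 19938 genes; 999 genes had several. A group-means model over all 24 arrays was fitted with limma 3.58.1 in R 4.3.3 (lmFit, eBayes, 16 residual degrees of freedom), with the contrast treated day 6 minus untreated day 8 and Benjamini-Hochberg adjustment over all genes; the median standard error was 0.0919. The series describes 3 independent experiments, but the labels give only a replicate number, which was not used as a block. The procedure was tested on simulated data. Genes were named by rule: the 15 largest changes each way without overlap of arrays, up to 6 members of each list by p, the 10 largest untreated changes each way from day 6 to day 8, and a fixed set of markers. Other members given beside them, such as those that were not called, were chosen after their values were seen. The members and the 36 gene lists (704 of 741 entries measured) were chosen with earlier results of these data known. Promoters came from RefSeq tables of GRCm38.p6. Positions were computed with Python 3.11.15, numpy 2.4.6 and pandas 2.3.3, permutation tests with scipy 1.17.1 and figures with matplotlib 3.10.9.

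Alternatives covered the scaling, a filter on low levels, the choice of probe set, the variance prior, array weights, the samples in the fit, a replicate block and each array left out; a fit on every probe set was added after seeing the data.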

Additional observations from a re-analysis of the deposited data

How the results depend on the processing

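Of 243 named genes, 208 were called, 146 of these in every alternative setting that they entered. No named gene changed sign while called, 42 lost their call under quantile normalization and 41 without untreated day 8 replicate 1. Among genes above the 40th percentile of mean level, 3790 were higher and 1737 lower, against 4036 and 3784 over all genes. Of the calls, 68.6% were higher with this filter, against 51.6% over all genes, and the cause was not tested. Requiring a 2-fold difference left 74 higher and 114 lower. With 1 array left out at a time, the higher calls ranged from 2872 to 3746 and the lower calls from 2113 to 3790, fewest without untreated day 8 replicate 1. Quantile normalization gave 3013 higher and 2864 lower, and array weights 4315 and 4556. Every probe set, added after seeing the data, gave 4423 higher and 4039 lower. The axis difference of -0.184 ranged from -0.220 to -0.165 with 1 array left out, and from -0.218 to -0.177 in the other settings. Replicate numbers are shared between groups but are not stated to mark a pairing. Deviations of same-numbered arrays correlated at 0.232, 0.304 and 0.056, and each array correlated best with its own number, a hint from the data only. With a replicate block over 24 arrays 4228 genes were higher and 4049 lower, and on the 6 arrays alone with the block 4172 and 4260. Without detection calls, differences between genes near the low end of the scale rest on signals whose distance from background is unknown.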

Other observations

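Genes of the unfolded protein response were higher in treated day 6 than in untreated day 8 EBs in 9 of 20 and lower in 0. Their median was 0.17, and over all genes 20.2% were higher and 19.0% lower. With 1 array left out at a time the higher calls of this list numbered 6 to 8. Ddit3, the stress-induced factor CHOP, had 10.26, 9.73 and 9.66 log2 units in treated day 6 EBs, against 8.66, 8.50 and 8.62 in untreated day 8 EBs and 10.03, 9.75 and 9.28 in untreated day 6 EBs. Its treated day 6 values overlapped those of untreated day 6 and stood above untreated day 8 by 1.29 (SE 0.17, adjusted p = 2.16e-05). Dnajb9, a chaperone of the endoplasmic reticulum, was higher at 0.54 (adjusted p = 0.000398) and Pdia6, a disulphide isomerase, at 0.36 (adjusted p = 0.000192). Hspa5, the main chaperone of that compartment, differed by -0.01 (adjusted p = 0.939).

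Of 21 hypoxia and glycolysis genes 8 were higher and 1 lower, or 4 higher without untreated day 8 replicate 1. Adm, a hypoxia-induced peptide hormone, had 9.93, 10.04 and 9.60 in treated day 6 EBs, against 8.58, 8.86 and 8.79 in untreated day 8 EBs (difference 1.11, adjusted p = 9.1e-05). Of 20 immediate early genes 3 were higher and 2 lower. Ier3, a gene induced quickly by growth factors, had 9.03, 9.00 and 9.09 in treated day 6 EBs, against 8.08, 8.21 and 8.14 in untreated day 8 EBs (difference 0.89, adjusted p = 6.14e-06). Of 16 Notch response genes 4 were higher and 5 lower, with 2 to 4 of each when 1 array was left out. Hes1, a repressor that Notch signalling induces, had 10.88, 10.86 and 10.74 in treated day 6 EBs, against 9.93, 10.18 and 10.44 in untreated day 8 EBs (difference 0.65, adjusted p = 0.000712), while its relative Hes5, an indicator of neural progenitors, was lower at -0.47. Of 23 surface ectoderm and keratin genes 8 were higher (34.8%) and 5 lower (21.7%). Krt8, a keratin of simple epithelia, was on the smaller, lower side at -0.51 (adjusted p = 0.00181). Of 18 cholesterol synthesis genes 5 were higher and 1 lower, and 1 was higher without untreated day 8 replicate 2. Of 27 cell cycle genes 2 were higher and 1 lower, and of 13 housekeeping genes 3 were higher and 1 lower. After quantile normalization the higher calls numbered 5 among hypoxia genes, which then had 3 lower, 2 among Notch genes, 5 among surface ectoderm genes, 2 among cholesterol genes and 0 among cell cycle genes.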
